A study of Mus musculus with 4 samples.

Results

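The mitosis genes described here are 42 genes that act between the end of DNA replication and the separation of the daughter cells, chosen by symbol, and all 42 were among the 17013 genes of the deposited expression values. They were measured by RNA sequencing in mouse bone marrow-derived macrophages (BMDMs), cells grown out of the marrow of wild-type C57BL/6 male mice with the macrophage growth factor M-CSF. The macrophages were plated on porous culture inserts, treated after an overnight incubation and harvested 24 h after the treatment. Artificial necrotic bone fluid (aNBF), an extract that carries the contents of dead bone cells, was in every culture. Necrotic fat was prepared by freezing, thawing and collagenase digestion of abdominal fat. The control medium (Con, n = 2 libraries) held the middle layer of that preparation. The other medium (Fat, n = 2 libraries) held its top layer of fat, set so that the cells could touch it and take it up. Con is therefore a culture with aNBF and fat-derived fluid, not an untreated one. Nothing states that the libraries of a medium came from separate mice or cultures, so the p-values measure the spread between these libraries, which may be technical.

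Mitosis is driven by cyclin-dependent kinase 1 bound to cyclins A and B, and it ends when the anaphase-promoting complex (APC/C) marks the cyclins and securin for destruction. In between, a spindle of microtubules and kinesin motors attaches to the kinetochores of the chromosomes, and a checkpoint holds the cell until every kinetochore is attached. Most of these genes are transcribed late in the cell cycle from promoters bound by the DREAM and MuvB complexes, and resting macrophages express them at low levels, whereas macrophages expanded with M-CSF divide.

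The promoters are shown first, because many of the members share short sequence elements there that their selection did not use. A promoter window of 250 bases before to 50 bases after the start of transcription was found by symbol in RefSeq (build GRCm38.p6) for 35 of the 42 genes, with 37 windows in all. The elements searched on both strands were the cell cycle homology region (CHR), in its forms TTTGAA and TTCGAA, and the CCAAT box, CCAAT. Matches that share bases, as in the Ube2c promoter, were counted separately. In the 250 bases printed for each gene, 5′ to 3′ on the gene's strand, capitals mark these elements in either orientation, so that TTCAAA is TTTGAA and ATTGG is CCAAT read from the other strand. Cdk1, Top2a and Mki67 stand for members that were lower in Fat past the test, and Cdc20, Ube2c and Ect2 for members that did not pass it.
Cdk1: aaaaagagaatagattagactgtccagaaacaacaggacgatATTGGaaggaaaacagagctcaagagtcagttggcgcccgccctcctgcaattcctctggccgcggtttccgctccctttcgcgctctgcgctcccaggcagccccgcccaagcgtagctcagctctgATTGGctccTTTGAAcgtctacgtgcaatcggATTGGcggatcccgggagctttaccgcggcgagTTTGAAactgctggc
Top2a: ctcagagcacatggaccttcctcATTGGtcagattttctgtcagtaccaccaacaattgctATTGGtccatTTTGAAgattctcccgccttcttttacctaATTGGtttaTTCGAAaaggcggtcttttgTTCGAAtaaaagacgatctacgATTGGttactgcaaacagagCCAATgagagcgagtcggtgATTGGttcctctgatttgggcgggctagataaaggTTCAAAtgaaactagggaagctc
Mki67: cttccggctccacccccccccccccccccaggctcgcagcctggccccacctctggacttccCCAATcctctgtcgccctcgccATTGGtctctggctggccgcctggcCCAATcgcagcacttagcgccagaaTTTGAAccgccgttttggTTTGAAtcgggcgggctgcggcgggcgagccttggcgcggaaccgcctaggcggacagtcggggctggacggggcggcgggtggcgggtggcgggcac
Cdc20: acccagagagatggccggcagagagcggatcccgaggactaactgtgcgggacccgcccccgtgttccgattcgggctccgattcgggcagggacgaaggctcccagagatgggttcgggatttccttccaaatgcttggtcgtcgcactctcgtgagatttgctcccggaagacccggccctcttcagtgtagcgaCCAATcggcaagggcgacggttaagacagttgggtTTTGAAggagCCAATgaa
Ube2c: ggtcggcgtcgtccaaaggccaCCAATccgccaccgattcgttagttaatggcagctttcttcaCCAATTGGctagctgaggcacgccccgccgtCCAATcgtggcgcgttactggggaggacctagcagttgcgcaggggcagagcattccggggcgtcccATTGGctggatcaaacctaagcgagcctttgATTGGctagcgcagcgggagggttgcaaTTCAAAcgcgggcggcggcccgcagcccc
Ect2: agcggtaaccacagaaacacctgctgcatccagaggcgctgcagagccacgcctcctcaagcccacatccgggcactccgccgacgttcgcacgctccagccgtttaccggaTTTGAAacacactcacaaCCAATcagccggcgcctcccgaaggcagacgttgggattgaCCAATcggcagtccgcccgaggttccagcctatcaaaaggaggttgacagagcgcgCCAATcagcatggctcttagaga

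These stretches lie at chr10:69352913-69353162 on the minus strand for Cdk1, chr11:99024190-99024439 on the minus strand for Top2a and chr7:135716380-135716629 on the minus strand for Mki67. Those of the other genes lie at chr4:118437344-118437593 on the minus strand for Cdc20, chr2:164769679-164769928 on the plus strand for Ube2c and chr3:27153855-27154104 on the minus strand for Ect2, the first of its windows. The CHR nearest to the start began 15 bases before it in Cdk1, 23 bases in Top2a, 98 bases in Mki67, 18 bases in Cdc20 and 29 bases in Ube2c. TTTGAA was present in 29 of the 37 windows (78.4%), against 17.9% of the 32851 promoter windows of all genes. CCAAT was present in 28 windows (75.7%, against 37.4%), and a CHR together with CCAAT in 25 (67.6%, against 7.52%). Over the 11952 windows of genes that passed the filter given below, the shares were 12%, 37.5% and 5.71% in the same order. The elements were found in members with and without a call. A CHR was found for 16 of the 21 genes with a window that were called lower in Fat and for 12 of the 14 that were not called, and CCAAT for 15 and 11 of them. Called genes with a window but no CHR were Melk, Nek2 and Nusap1, which had the largest fold changes of all members, and Ccnb1 and Cenpe. Birc5 and Nuf2 were the uncalled ones. Each printed stretch holds both elements, so the printed genes do not stand for those without a CHR. A match is a description of the letters in the window and not of a bound factor.

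Reads recovered from the CPM values of the listed genes came to 33573852 and 37881292 in the Con libraries. They came to 37534565 and 40785872 in the Fat libraries, and 1 read was worth between 0.0244 and 0.0295 CPM (reads scaled by library size). Most of these totals lay above the read depth per sample that the authors state. Libraries of one medium differed by more than counting noise, with a chi-square per degree of freedom of 13.2 between the Con libraries and 12.95 between the Fat libraries. The macrophage label was checked on 10 marker genes, all of which were present. Csf1r, the M-CSF receptor, measured 1852 and 1638 CPM in Con and 1539 and 1477 CPM in Fat, and Cd68 measured between 778 and 892 CPM in the 4 libraries. A gene was called when its adjusted p was under 0.05 in limma's test on log2(CPM + 0.1), with Benjamini-Hochberg adjustment over the 12470 genes that reached 0.5 CPM in at least 2 libraries. Fold changes are Fat against Con on that log2 scale.

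The mitosis genes were lower in Fat as a group, by amounts that were small for each gene. All 42 passed the filter on low values, and 24 of them were called lower in Fat. Of all tested genes 5.0% were called lower. The members were chosen with earlier results of these data known. The shares of all tested genes are therefore given as a scale and not as a test of the group. No member was called higher by limma (3.99% of all tested genes were), by edgeR (3.93%) or by DESeq2 (3.69%). At an unadjusted p of at most 0.05, 0 members were higher (11.8% of all tested genes were) and 37 were lower (against 12.4%). Both Fat libraries lay below both Con libraries for 41 of the 42 genes, against 26.2% of all tested genes, and the exception was Cdc25c. The median log2 fold change of the 42 genes was -0.42, with a range from -0.65 to 0.13, beside 0.01 over all tested genes. In a bulk sample, fewer dividing cells and less mitotic RNA in each dividing cell cannot be told apart.

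Added together, the 42 genes came to 801 and 736 CPM in Con and to 590 and 576 CPM in Fat. The mean was 768 ± 46.4 CPM (SD, n = 2) in Con and 583 ± 9.52 CPM (SD, n = 2) in Fat, 24.2% lower. Both Fat sums lay below both Con sums, and the gap between the media was larger than the gap between the Con libraries, of which replicate 1 was 8.91% above replicate 2. That gap ran through the members: 37 of the 42 were higher in Con replicate 1 than in Con replicate 2, with a median log2 ratio of 0.14, where 50.5% of all tested genes were higher in that library. The part of this gap in the calls was not tested, and fits with each library left out are given after the single genes. With 2 libraries in each medium, the smallest p that an exact two-sided permutation test can give for a single value is 0.333, so no such test is given.

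**Figure D1:**
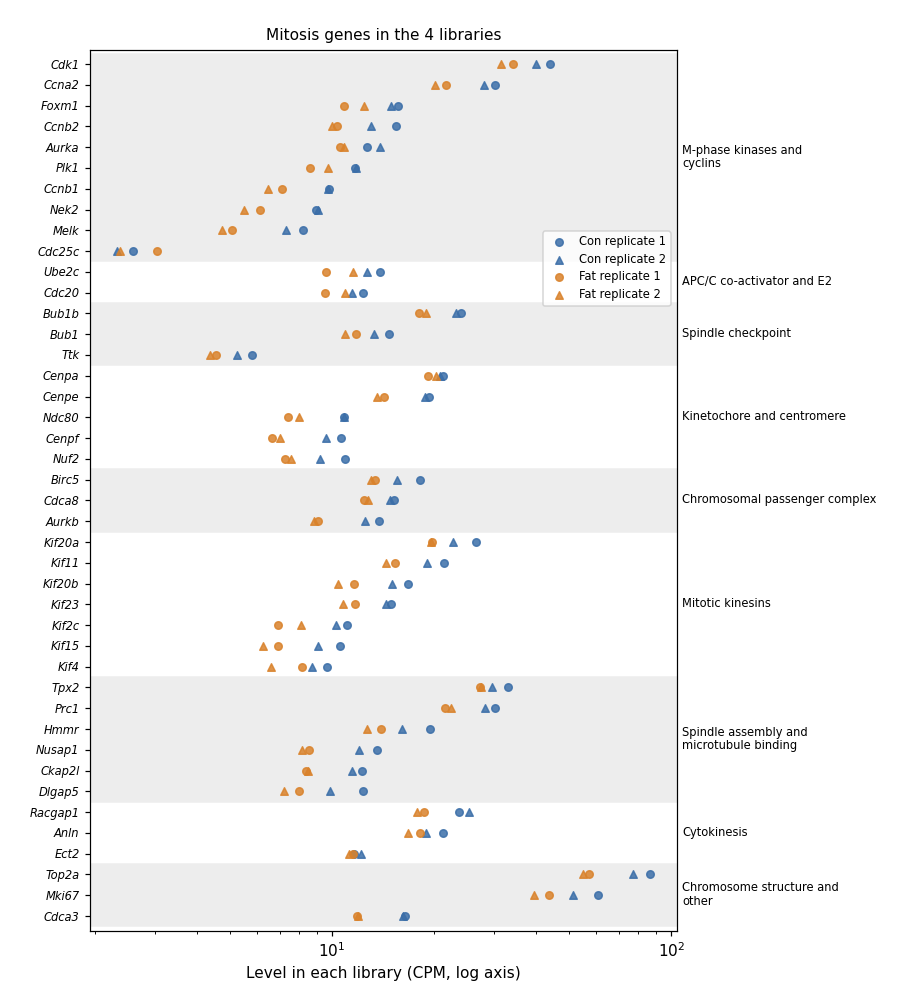
The level of each of the 42 mitosis genes (rows, grouped by role) in CPM on a log axis, with 1 point for each of the 2 Con (blue) and 2 Fat (orange) libraries. The Fat points lie left of the Con points in 41 rows, and in Cdc25c they overlap.

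Among the kinases, cyclins and their regulators, 6 of 10 genes were called lower. Cdk1, the kinase that starts mitosis, measured 44.0 and 40.0 CPM in Con and 34.1 and 31.5 CPM in Fat (log2 fold change -0.36, SE 0.08, adjusted p 0.0292). Ccna2, which encodes cyclin A2, measured 30.2 and 28.0 CPM in Con and 21.6 and 20.1 CPM in Fat (log2 fold change -0.48, SE 0.08, adjusted p 0.013). The Con and Fat libraries of both genes were separate. Ccnb1, which encodes cyclin B1, was at 9.76 CPM in both Con libraries and at 7.13 and 6.49 CPM in Fat (log2 fold change -0.51, SE 0.10, adjusted p 0.0248), although 23.4% of the 50-base stretches of its transcripts also occur in other genes, most of them in the pseudogene Ccnb1-ps, and reads from these cannot be told apart. Ccnb2, the cyclin B2 gene, was called lower as well, at a log2 fold change of -0.47.

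The largest fold changes of all members were those of 2 further kinases. Melk, a kinase of dividing and progenitor cells, measured 8.23 and 7.30 CPM in Con and 5.06 and 4.73 CPM in Fat (log2 fold change -0.65, SE 0.12, adjusted p 0.0188). Nek2, a centrosome kinase, measured 8.96 and 9.09 CPM in Con and 6.14 and 5.49 CPM in Fat (log2 fold change -0.63, SE 0.11, adjusted p 0.0164). Every Fat value of Melk and Nek2 lay more than 1 CPM below every Con value. The mitotic kinases Plk1 (log2 fold change -0.35, adjusted p 0.073) and Aurka (-0.31, adjusted p 0.0865) and the transcription factor Foxm1 (-0.39, adjusted p 0.0507), which drives G2/M genes, did not pass the threshold, though their libraries did not overlap either. Cdc25c, a phosphatase that activates Cdk1, was the one member with a fold change above 0. It measured 2.59 and 2.32 CPM in Con and 3.05 and 2.37 CPM in Fat (log2 fold change 0.13, SE 0.18, adjusted p 0.724), so the media overlapped, and it had the largest SE of the 42 genes. Without Fat replicate 1 its log2 fold change was -0.050.

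Neither of the genes that work with the APC/C passed the test. Cdc20, the co-activator of the complex at anaphase, stood at -0.22 on the log2 scale (adjusted p 0.259), and Ube2c, its ubiquitin-conjugating enzyme, at -0.32 (adjusted p 0.132). In each, Fat replicate 2 lay closer to Con than Fat replicate 1 did. Of the spindle checkpoint genes, Bub1b, which encodes the checkpoint protein BubR1, was called lower (log2 fold change -0.35, adjusted p 0.0285). The checkpoint kinases Bub1 and Ttk, both at a log2 fold change of -0.30, were not called.

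At the kinetochore and centromere, 3 of 5 genes were called lower. Cenpf, which encodes a large kinetochore protein of G2 and mitosis, measured 10.6 and 9.62 CPM in Con and 6.67 and 7.0 CPM in Fat (log2 fold change -0.56, SE 0.10, adjusted p 0.0206). Ndc80, whose product links the kinetochore to microtubules, measured 10.9 and 10.8 CPM in Con and 7.39 and 8.00 CPM in Fat (log2 fold change -0.49, SE 0.10, adjusted p 0.0243). The libraries of a medium were close together and the media apart for both genes. Cenpe, the kinetochore motor that moves chromosomes to the spindle equator, was also called lower (log2 fold change -0.45, adjusted p 0.0164), and Nuf2, the partner of Ndc80, was not (-0.43, adjusted p 0.0624). Cenpa, the histone H3 variant that marks centromeres, differed by the second smallest amount of the 42 genes, at 21.2 and 20.8 CPM in Con and 19.2 and 20.2 CPM in Fat (log2 fold change -0.09, SE 0.07, adjusted p 0.511).

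In the chromosomal passenger complex, which corrects wrong attachments, the kinase gene Aurkb measured 13.8 and 12.5 CPM in Con and 9.08 and 8.83 CPM in Fat (log2 fold change -0.54, SE 0.10, adjusted p 0.0165). Its partners Birc5 (survivin; log2 fold change -0.34, adjusted p 0.0781) and Cdca8 (borealin; -0.25, adjusted p 0.107) did not pass the test. Each of these genes had Fat libraries below both Con libraries.

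Of the mitotic kinesins, the motors that push spindle poles apart, move chromosomes and organise the midzone, 5 of 7 were called lower. Kif15, which helps keep the spindle bipolar, measured 10.5 and 9.06 CPM in Con and 6.91 and 6.27 CPM in Fat (log2 fold change -0.56, SE 0.12, adjusted p 0.0289). Kif20b, a motor of late mitosis and cytokinesis, measured 16.7 and 15.0 CPM in Con and 11.6 and 10.4 CPM in Fat (log2 fold change -0.52, SE 0.10, adjusted p 0.0207). Kif2c, which takes microtubules apart at centromeres, measured 11.0 and 10.2 CPM in Con and 6.91 and 8.07 CPM in Fat (log2 fold change -0.50, SE 0.11, adjusted p 0.0368). The media stood apart in each of them, with the Fat libraries of Kif2c the farthest from each other relative to their level. Kif11, the motor that separates the spindle poles (log2 fold change -0.44), and Kif23, a motor of the midzone (-0.38), were called lower too, whereas Kif20a and Kif4 were not, at -0.32 and -0.31. On the opposite strand, exons of Cdc23 overlap 29.3% of the exon bases of Kif20a. Those of Tnnc2 overlap 22.8% of Ube2c, those of Pdzd11 15.1% of Kif4 and those of Gm3550 12.7% of Cdc25c. Among members called lower, exons of Exosc9 overlap 12.5% of Ccna2 and those of Rccd1 11.1% of Prc1. Nek2, Ckap2l and Nusap1 have smaller overlaps. Whether strand was used in counting is not given in the sources used here, so reads of such pairs may be mixed.

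Among the genes for spindle assembly and microtubule binding, 4 of 6 were called lower. Nusap1, a protein that bundles spindle microtubules, measured 13.5 and 12.0 CPM in Con and 8.55 and 8.17 CPM in Fat (log2 fold change -0.60, SE 0.10, adjusted p 0.0149). Ckap2l, a spindle pole protein, measured 12.2 and 11.4 CPM in Con and 8.36 and 8.49 CPM in Fat (log2 fold change -0.49, SE 0.09, adjusted p 0.0223). Dlgap5, a protein that stabilises spindle microtubules, measured 12.3 and 9.84 CPM in Con and 8.01 and 7.20 CPM in Fat (log2 fold change -0.53, SE 0.13, adjusted p 0.0487). The Con libraries of Dlgap5 differed more than those of the other two, and it passed the threshold narrowly. Prc1, which cross-links midzone microtubules, was called lower (log2 fold change -0.41, adjusted p 0.0163), while Hmmr, a spindle pole protein, with the same log2 fold change of -0.41 and a larger SE of 0.11, was not (adjusted p 0.0639). Tpx2, the activator of Aurora A on the spindle, stood at -0.19 on the log2 scale (adjusted p 0.179).

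Cytokinesis, which divides the cytoplasm, gave 1 call in 3 genes. Racgap1, a subunit of the centralspindlin complex, was called lower (log2 fold change -0.42, adjusted p 0.0173). Anln, which encodes the scaffold anillin of the contractile ring, stood at -0.20 on the log2 scale (adjusted p 0.24), and Ect2, the exchange factor that activates RhoA there, at -0.06 (adjusted p 0.705), the smallest difference of the 42 genes. The summed level of these 3 genes was 16.6% lower in Fat, the smallest difference among the roles, although no test compared the roles.

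All 3 remaining genes were called lower. Top2a, the topoisomerase that disentangles chromosomes, measured 86.5 and 77.2 CPM in Con and 57.1 and 55.0 CPM in Fat (log2 fold change -0.54, SE 0.07), and its adjusted p of 0.00611 was the smallest of the 42. Mki67, which encodes the proliferation marker Ki-67 that coats mitotic chromosomes, measured 60.7 and 51.4 CPM in Con and 43.5 and 39.5 CPM in Fat (log2 fold change -0.43, SE 0.09, adjusted p 0.0298). These genes had the highest CPM of the group, and their Con and Fat libraries were separate. Cdca3, a gene of mitotic entry, was 27.0% lower in Fat (adjusted p 0.017).

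**Figure D2:**
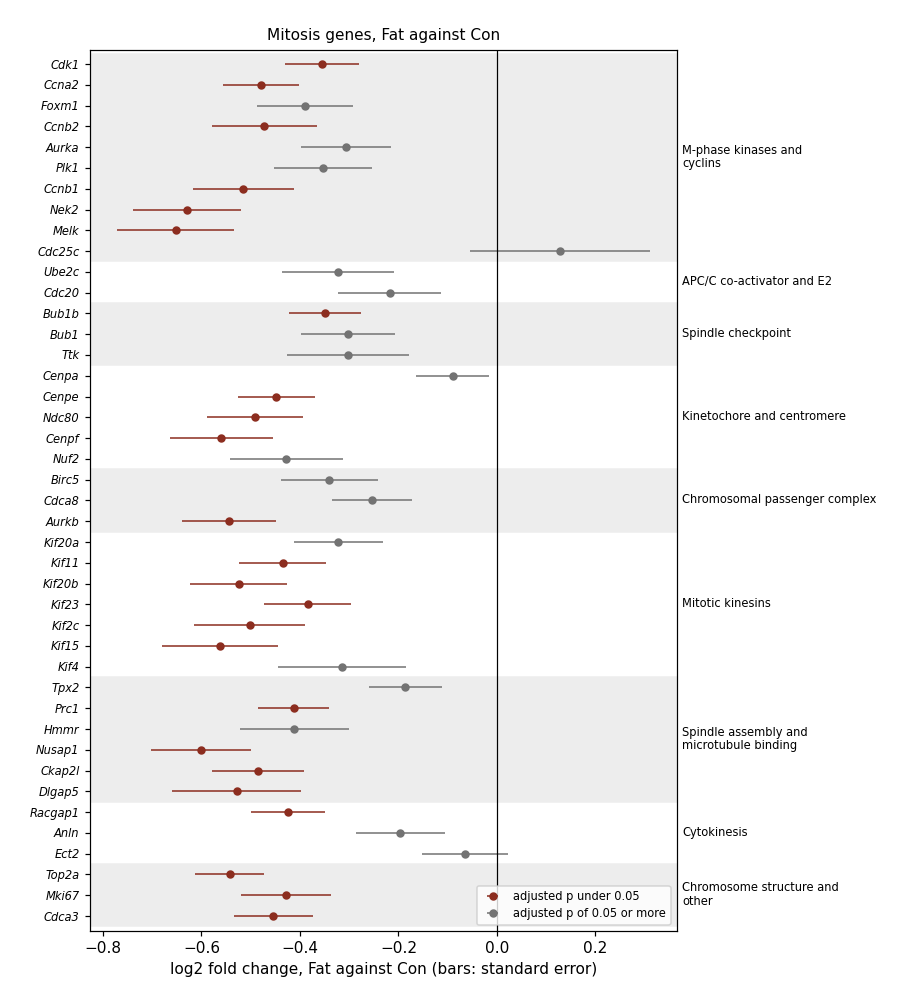
Log2 fold change of Fat against Con for each of the 42 mitosis genes (rows, grouped by role), with bars for the standard error of the fit, in red where the adjusted p was under 0.05. The 24 red points lie between -0.65 and -0.35, and Cdc25c is the one point right of 0.

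The levels of different genes can be compared per length, on the TPM scale (reads scaled by gene length and library size). The highest mean TPM over the 4 libraries was that of Cenpa (33.3 TPM), followed by Top2a (28.9 TPM), Cdk1 (28.6 TPM) and Ube2c (28.0 TPM). At the other end stood Ttk (3.51 TPM), Cdc25c (2.92 TPM) and Cenpf (1.67 TPM). The order at the top differed between the media: in Con the mean of Top2a was 34.0 TPM beside 33.99 TPM for Cenpa, and in Fat Top2a (23.8 TPM) stood below Cdk1 (25.4 TPM) and Ube2c (25.2 TPM). In the order over the 4 libraries, only Cdc25c and Cenpf, of the 41 pairs of neighbours, had ranges over the 4 libraries that did not overlap. Cenpa measured 34.6 and 33.3 TPM in Con and 31.8 and 33.5 TPM in Fat, so its media overlapped on this scale.

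The number of calls depended on single libraries and on how the spread was estimated. Without Con replicate 1, 4 members were called lower (against 2.68% of all tested genes), and without Con replicate 2 there were 23 (against 4.91%). Without Fat replicate 1, 16 were called lower (against 4.68%), and without Fat replicate 2 there were 6 (against 2.51%). In these fits the medium left with 1 library was assumed to vary like the other. Ccna2 and Top2a were called in all 4 of these fits. With the TPM values 12 members were called (against 2.94% of all tested genes), all of them among the 24. Without a mean-variance trend limma called 0 members (0.0962% of all tested genes were lower), with 35 lower at an unadjusted p of at most 0.05 and a smallest adjusted p of 0.0831. On reads recovered from the CPM values, edgeR's quasi-likelihood test called 25 members lower (against 5.2% of all tested genes) and DESeq2 23 (against 4.81%). Median ratios gave 25 (against 5.43%), a pseudocount of 1 CPM 23 (against 5.0%), a mean of at least 5 CPM 23 (against 5.32%) and no filter 20 (against 3.13%). In every setting that tested them 41 members had a log2 fold change below 0, and the median stayed between -0.46 and -0.36. These are the 41 genes with both Fat libraries below both Con libraries, so leaving out 1 library could not turn their direction. The settings that changed only the filter or the estimate of spread kept the same fold changes.

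**Figure D3:**
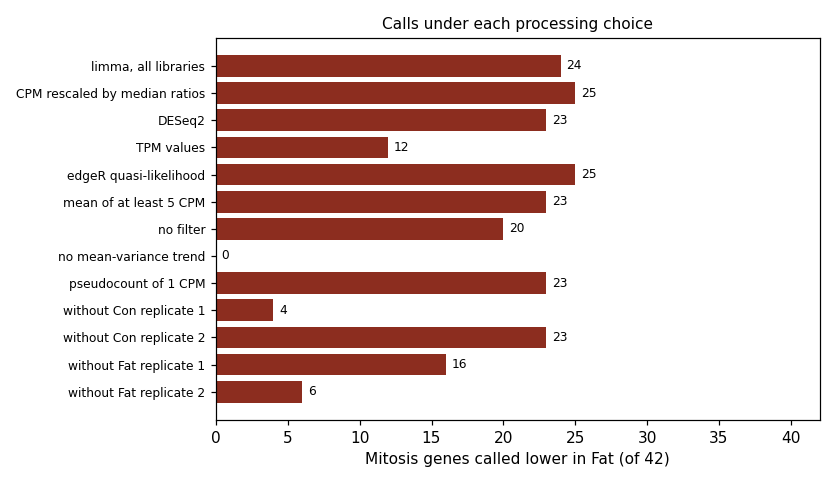
The number of the 42 mitosis genes called lower in Fat (bar length, from 0 to 42) with all libraries in limma and under other processing choices. The replicate block (35 genes) and the unadjusted p of at most 0.05 (37 genes) are not drawn. The count is 24 in the first bar, 12 with TPM values, 4 without Con replicate 1, 6 without Fat replicate 2 and 0 without a mean-variance trend.

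Genes that act beside these in the cell cycle were taken from further lists, all of whose members passed the filter. Of 77 other mitosis genes, limma called 10 lower (13.0%, against 5.0% of all tested genes) and 0 higher (against 3.99%). At an unadjusted p of at most 0.05, 42 were lower (against 12.4%) and 0 higher (against 11.8%). edgeR called 11 lower (against 5.2%) and DESeq2 6 (against 4.81%). The median log2 fold change of the 77 genes was -0.31. Both Fat libraries lay below both Con libraries for 61 of them, against 26.2% of all tested genes. Kif14, a midzone kinesin, measured 5.28 and 4.61 CPM in Con and 3.27 and 2.49 CPM in Fat (log2 fold change -0.77, adjusted p 0.0351), and Fam64a, a mitotic regulator, was called at -0.71 (adjusted p 0.0129). Cenpn of the centromere (-0.67), the spindle motor Kifc1 (-0.62), the spindle pole gene Aspm (-0.52) and the abscission gene Cep55 (-0.47) were also called lower. The median level of these 77 genes was 6.95 CPM, against 12.4 CPM for the 42 members.

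Of 45 genes for DNA replication and S phase, 15 were called lower (33.3%, against 5.0% of all tested genes). A log2 fold change below 0 was found for 44 of the 45 (against 46.4% of all tested genes), with a median of -0.27. No gene of this list was called higher by limma, edgeR or DESeq2, and 1 was higher at an unadjusted p of at most 0.05. Mcm10, a replication initiation factor, measured 9.58 and 9.44 CPM in Con and 6.32 and 6.12 CPM in Fat (log2 fold change -0.60, adjusted p 0.0144). The origin licensing gene Cdc6 (-0.49), Uhrf1, which maintains DNA methylation (-0.46), the single-strand binding gene Rpa2 (-0.45) and the helicase genes Cdc45 and Mcm5 (-0.44 each) were called lower as well.

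The cyclins, kinases and inhibitors of G1 stood closer to the median of all genes. Of these 16 genes 2 were called lower (12.5%, against 5.0% of all tested genes). The median log2 fold change was -0.07, and 7 genes had a log2 fold change above 0. Ccnd1, which encodes cyclin D1, measured 124 and 134 CPM in Con and 103 and 104 CPM in Fat (log2 fold change -0.32, adjusted p 0.0201), and the inhibitor gene Cdkn2d was called at -0.42 (adjusted p 0.034). Of 19 E2F, RB and DREAM or MuvB genes, whose products control cell cycle transcription, 1 was called lower. This share of 5.26% is near the 5.0% of all tested genes. A log2 fold change below 0 was found for 15 of the 19 (against 46.4% of all tested genes), with a median of -0.11. At an unadjusted p of at most 0.05 in limma, 6 were lower (against 12.4%) and 0 higher (against 11.8%). Both Fat libraries lay below both Con libraries for 11 (against 26.2%) and above them for 3 (against 29.4%). The called gene was Rbl1, which encodes the pocket protein p107. It measured 40.0 and 34.97 CPM in Con and 26.5 and 25.1 CPM in Fat (log2 fold change -0.54, adjusted p 0.0112). Cdk4, E2f1 and Mybl2 were looked up outside the naming rule, after their values had been seen. The kinase gene Cdk4 was at 0.0031 on the log2 scale (adjusted p 0.987), the activator E2f1 at -0.09 (adjusted p 0.394) and the MuvB partner Mybl2 at -0.30 (adjusted p 0.255).

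**Figure D4:**
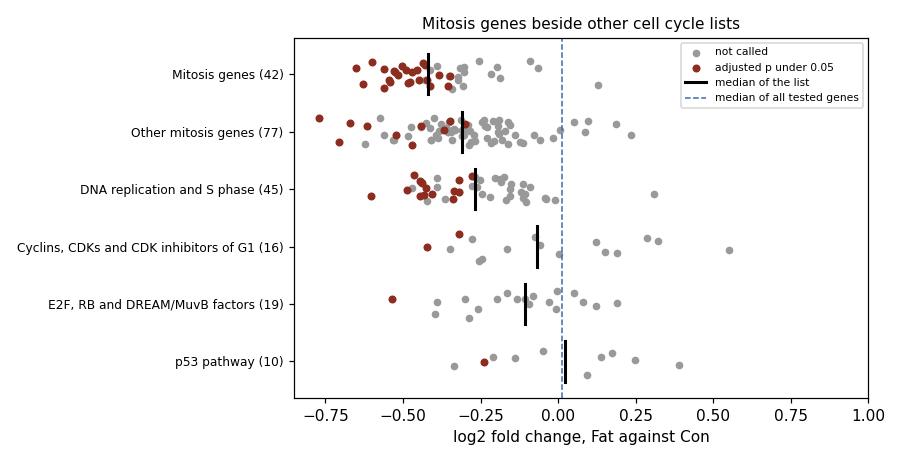
Log2 fold change of Fat against Con for each gene (points, red where the adjusted p was under 0.05) in the mitosis genes and 5 other lists, with a bar at each list's median and a dashed line at the median of all tested genes, 0.01. The medians run from -0.42 for the mitosis genes to 0.02 for the p53 pathway. Between them lie -0.31 (other mitosis genes), -0.27 (S phase), -0.11 (E2F, RB and DREAM or MuvB) and -0.07 (G1).

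Markers of other cells that a marrow culture can hold were read beside these results. Of all tested genes 5.0% were called lower by limma, and 12.4% were lower at an unadjusted p of at most 0.05. The summed level of 8 haematopoietic progenitor markers, cells that divide, was 8.88 and 8.82 CPM in Con and 6.48 and 6.05 CPM in Fat. Of the 6 that passed the filter none was called by limma, edgeR or DESeq2, with 2 lower at an unadjusted p of at most 0.05, and their part in the lower mitosis genes was not tested. Of 8 erythroid markers 5 were listed and 0 reached the filter, with summed levels between 0.723 and 1.39 CPM in the 4 libraries. Summed lymphocyte markers (8 of 9 listed) were at 30.3 and 27.8 CPM in Con and 21.7 and 24.8 CPM in Fat with 0 called by limma, edgeR or DESeq2 and 3 lower at an unadjusted p of at most 0.05, and neutrophil markers (7 of 8 listed) were at 872 and 790 CPM in Con and 730 and 697 CPM in Fat with 1 called lower. The part of the erythroid, lymphocyte and neutrophil markers in the result was not tested either. The 10 macrophage markers summed to 36179 and 34163 CPM in Con and to 28721.5 and 27162.5 CPM in Fat, 20.6% lower, and this moved with the mitosis genes. The lysozyme gene Lyz2 held the largest share of that sum (log2 fold change -0.41, adjusted p 0.209). Of these markers 7 of 10 had a log2 fold change below 0, 5 were lower at an unadjusted p of at most 0.05 and 2 were called lower, the Fc receptor gene Fcgr1 (log2 fold change -0.88, adjusted p 0.0123) and the efferocytosis receptor gene Mertk (-0.31, adjusted p 0.0289). The part of the macrophage markers in the result was not tested.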

How the data were processed

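Polyadenylated RNA of 4 samples was made into stranded libraries, and the authors deposited CPM and TPM for each gene. In the CPM deposited by the authors, reads are divided by library totals and a further library factor. The TPM values deposited by the authors are scaled for gene length and were used for levels between genes and 1 alternative. The submitters' processing notes name the build GRCm39, and the aligner and annotation are not given in the sources used here, so promoters (RefSeq, GRCm38.p6) and transcripts (GENCODE vM21) were matched by symbol. Whole reads were recovered from 100% of the CPM values, with a tolerance of 0.01 read, at 33573852 to 40785872 reads per library. The label titles gave each library's medium.

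Fat was compared with Con by limma 3.58.1 (R 4.3.3) on log2(CPM + 0.1), two-sided and with the variance as a trend on the mean, for genes of at least 0.5 CPM in at least 2 libraries, with Benjamini-Hochberg adjustment and calls under 0.05. edgeR 4.0.16 and DESeq2 1.42.0 were alternatives on the recovered reads. The other alternatives were a mean of at least 5 CPM, no filter, a pseudocount of 1 CPM, TPM, median ratios, the replicate block, no trend, each library left out and an unadjusted p. The members and lists were chosen with earlier results of these data known, so no list was tested as a set. The values per library are given for the 14 called members with the largest change, Mki67, Cdk1, Cdc25c and the members with the highest and lowest TPM. From other lists up to 6 called genes are named. Tests were checked on simulated counts with 200 changed genes and the same spread for all genes. Those genes changed by a larger fold than any member, so the recovery of changes as small as the members' was not checked.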

Additional observations from a re-analysis of the deposited data

How the results depend on the processing

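The number of the 42 mitosis genes called was 24 and became 12 with TPM values, 0 without a mean-variance trend, 37 at an unadjusted p of at most 0.05 and between 4 and 23 with 1 library left out. Their median log2 fold change moved by less than the SD between replicates (0.0623 on the log2 scale) in each alternative it was computed for, which leaves out the fit without a trend. The ratio of the summed levels was 0.759, with TPM 0.787 and with median ratios 0.754, both within its SD of 0.0474. With 1 library left out the ratio lay between 0.727 and 0.792. Both SDs are built from the gaps between the libraries of a medium. A left-out library could hardly move a value past them, so those fits do not show stability. The sum was not recomputed under other alternatives. The count of 41 members without overlap was 39 with TPM and 41 with median ratios, both chosen after seeing the data. Cdc25c, at a log2 fold change of 0.13, ranged from -0.050 (without Fat replicate 1) to 0.30 with 1 library left out. No other member changed direction, which the lack of overlap fixed in advance for the left-out fits.

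Over all genes 1122 were called in either direction, with 31 without a trend, 3008 at the unadjusted p and between 529 and 1131 with 1 library left out. Counts of the lists are of genes called lower. The shares of all tested genes under the same settings stand beside the mitosis genes above. For the 77 other mitosis genes the count of 10 became 6 with DESeq2, 5 with TPM, 4 without a filter, 0 without a trend, 42 at the unadjusted p and between 2 and 10 with 1 library left out. The count of 15 S phase genes became 9 with TPM, 0 without a trend, 26 at the unadjusted p (with 1 gene higher) and between 4 and 11 with 1 library left out. The 2 G1 genes became 0 without a trend, 6 at the unadjusted p (with 1 gene higher) and between 0 and 1 with 1 library left out, where 2 others were called higher without Con replicate 2. The 1 E2F, RB or DREAM gene became 0 without a trend and 6 at the unadjusted p. The 1 p53 pathway gene became 0 with TPM, 0 without a trend, 3 at the unadjusted p (with 3 genes higher) and between 0 and 1 with 1 library left out, where 1 gene was called higher without Fat replicate 1. The cause of these changes was not tested.

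The replicate numbers are shared only as numbers, with a correlation of the deviations of 0.20 over all tested genes. With the replicate block 35 mitosis genes (against 9.96% of all tested genes), 32 other mitosis genes and 24 S phase genes were called lower. So were 5 G1 genes, 5 E2F, RB or DREAM genes and 2 p53 pathway genes. In that fit 1 of 45 S phase genes, 2 of 16 G1 genes and 2 of 10 p53 pathway genes were called higher, against 10.2% of all tested genes. The block gave 2520 calls in either direction over all genes. The mitosis genes held 22008 to 27599 reads in a library, and their median SE was 0.10 on the log2 scale, beside 0.08 over all tested genes.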

Other observations

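The p53 pathway, which can halt the cell cycle, showed no common direction. Of 10 genes 1 was called lower (10%, against 5.0% of all tested genes), and 5 of the 10 had a log2 fold change above 0. The called gene was Ccng1, which encodes cyclin G1 (260.7 and 254 CPM in Con, 221 and 215 CPM in Fat, log2 fold change -0.24, adjusted p 0.0349). Cdkn1a, the p53 target that encodes the inhibitor p21, was looked up after its value had been seen and stood at -0.17 on the log2 scale (adjusted p 0.116).

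Of 10 adipocyte markers 3 passed the filter. Car3 and Cidec passed it through the Fat libraries alone, so that their calls (higher in Fat) are not support for the list, and Lipe, the third, measured 20.1 and 20.02 CPM in Con and 16.3 and 18.6 CPM in Fat (adjusted p 0.211). Car3 had 1 read in each Con library and 269 and 139 reads in the Fat libraries, and Adipoq had 0 reads in Con and 28 and 14 in Fat. The 10 markers, with Lipe the most abundant, summed to 20.3 and 20.2 CPM in Con and 27.7 and 24.6 CPM in Fat. Of 8 stromal markers Dcn was called lower (log2 fold change -0.82, adjusted p 0.0358), with sums of 645 and 670 CPM in Con and 538 and 686 CPM in Fat. The 7 endothelial markers listed summed to 7.22 and 5.49 CPM in Con and 7.72 and 8.39 CPM in Fat.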
